A study of Mus musculus with 4 samples.

Results

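The 9 genes described here, *Ptch1*, *Smo*, *Gli1*, *Gli2*, *Gli3*, *Sufu*, *Hhip*, *Evc* and *Evc2*, carry the Hedgehog signal from the cell surface to the nucleus. They were taken by name from the annotation of the array, which holds 18193 genes in all. Of its 45037 probe sets (groups of short probes that together give 1 signal), 22 name 1 of the 9 genes. The study asked what loss of the transcription factor XBP1 does to cartilage whose cells retain a mutant matrilin-3. Chondrocytes were freed by collagenase from the ribs of C57BL6/J mice aged 5 days, from pooled litters. The double mutant (Xbp1 KO, Matn3 MUT) lacked XBP1 in cartilage and carried the V194D mutation of *Matn3*, the *Matn3* mutant (Xbp1 WT, Matn3 MUT) carried the mutation alone, the XBP1 null (Xbp1 KO) lacked XBP1 alone, and the wild type (Xbp1 WT) carried neither. XBP1 was removed with a Cre recombinase under the *Col2a1* promoter that deletes exon 2 of *Xbp1*, so cells in the preparation that never used this promoter kept the gene. The sources used here do not say whether wild type and *Matn3* mutant mice carried the Cre transgene. Each genotype had 1 array, hybridized to RNA pooled from 3 extractions, so no difference between a pair of arrays has a replicate check or a p-value.

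In the Hedgehog pathway, a secreted ligand binds Patched-1, the product of *Ptch1*, which otherwise holds the membrane protein Smoothened (*Smo*) inactive. Freed Smoothened enters the primary cilium, where a complex of EVC and EVC2 at the ciliary base passes its signal on, and SUFU releases the GLI transcription factors. GLI1 acts as an activator, GLI3 mainly as a repressor after processing, and *Ptch1*, *Gli1* and *Hhip* are themselves direct targets whose mRNA is widely read as a measure of the signal. In growth cartilage the ligand is Indian hedgehog, made by prehypertrophic chondrocytes, and the responding cells are proliferating chondrocytes and the perichondrium.

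*Xbp1* had signals of 9548 in double mutant, 11403 in *Matn3* mutant, 7877 in XBP1 null and 8183 in wild type chondrocytes, on a probe set whose place relative to the deleted exon was not analysed here, so this value does not check the deletion. The cartilage markers were abundant on all 4 arrays. The signals of 15 chondrocyte matrix genes summed to 189337 in the double mutant, 179370 in the *Matn3* mutant, 172580 in the XBP1 null and 162847 in the wild type. Median signals were 43.8 on each array. The highest signals were 24498, 23629, 20751 and 18520 in the same order of genotypes as these sums. The arrays thus differed at the bright end of the scale, and the values were not rescaled for this. The Y-linked gene *Eif2s3y* had a signal of 0.032 in the *Matn3* mutant pool, whereas those of the other pools were 484 to 855, and in comparisons with this array the sex of the pooled mice and the genotype cannot be told apart. None of the 9 genes lies on a sex chromosome.

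Of the 22 probe sets, 11 were at or above the median of all probe sets by mean log2 signal over the 4 arrays, that is, at or above a signal of 41.6, and are called the brighter ones. These 11 read *Smo*, *Gli2* and *Gli3* with a pair each, and *Ptch1*, *Gli1*, *Sufu*, *Evc* and *Evc2* with 1 each. All 4 probe sets of *Hhip* and the remaining ones of *Ptch1*, *Smo*, *Gli3*, *Sufu* and *Evc* were dimmer than this. Over the 11 brighter probe sets, the highest of the 4 arrays was 1.36-fold to 2.18-fold above the lowest, with a median of 1.52-fold, where the median over all 22519 brighter probe sets was 1.57-fold. Those of the 11 dimmer ones varied from 1.79-fold to 35.4-fold, with a median of 3.64-fold, where the median over all dimmer probe sets was 2.76-fold. The plot of signals by genotype shows both kinds.

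**Figure D1:**
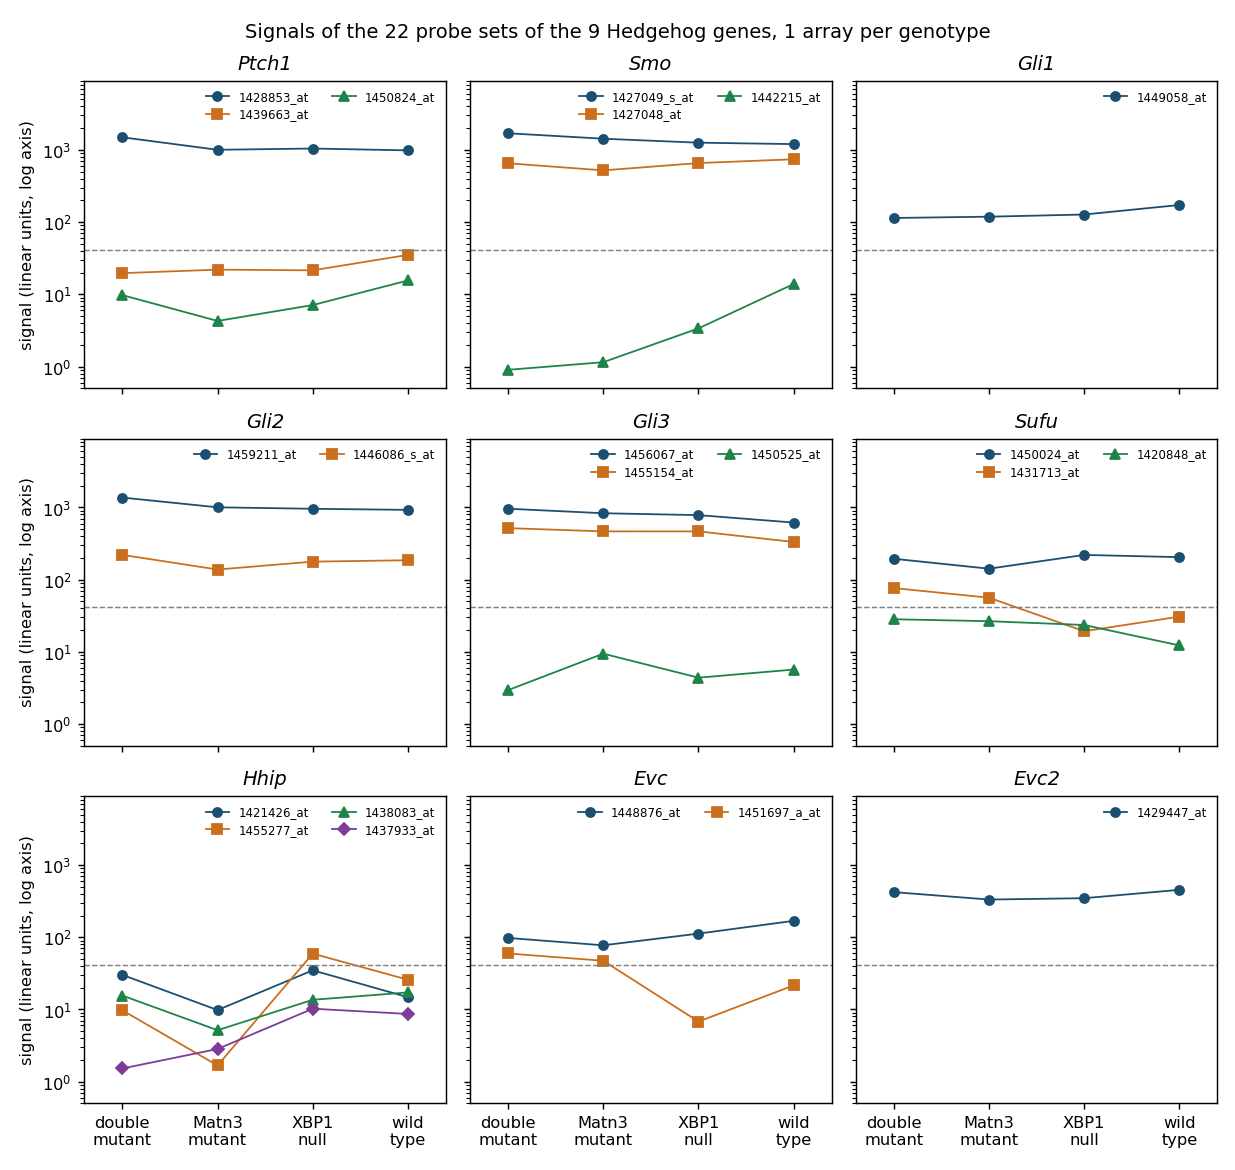
Signal (linear units on a log axis) of each of the 22 probe sets of the 9 genes in double mutant, *Matn3* mutant, XBP1 null and wild type chondrocytes, 1 array each; points joined by a line belong to 1 probe set, and the dashed line at 41.6 parts the brighter from the dimmer ones. The brighter probe sets span 1.36-fold to 2.18-fold across the genotypes, and the dimmer ones 1.79-fold to 35.4-fold.

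Relative to wild type, 4 of the 22 probe sets were over 1.5-fold higher and 8 over 1.5-fold lower in the *Matn3* mutant, where 22.0% of all probe sets were higher by that much and 20.8% lower. A fold of 1.5 is the threshold of the study's methods, which also needed probe-level errors that the deposited values do not hold. Of the 11 brighter probe sets, none was higher and 1, that of *Evc*, was lower, where 14.1% and 17.7% of all brighter probe sets were. In the XBP1 null, also relative to wild type, 3 of the 22 were higher and 6 lower, where 21.6% and 17.5% of all probe sets were. Of the brighter ones none was higher and *Evc* alone was lower, just past the threshold, where 16.7% and 11.0% were. Between the double mutant and the XBP1 null, 2 were higher and 3 lower, where 18.1% and 19.5% of all probe sets were, and no brighter one differed by over 1.5-fold in either direction, where 8.36% and 11.9% were higher and lower. In the double mutant relative to the *Matn3* mutant, 5 were higher and 2 lower, where 15.8% and 15.4% of all probe sets were, and 1 brighter one, of *Gli2*, was higher and none lower, where 9.69% and 7.90% were. The share of the 22 probe sets past the threshold was 54.5%, 40.9%, 22.7% and 31.8% in these comparisons in turn, beside 42.8%, 39.1%, 37.5% and 31.2% of all probe sets. The comparisons share arrays, so a high or low signal on 1 array enters 2 of them.

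**Figure D2:**
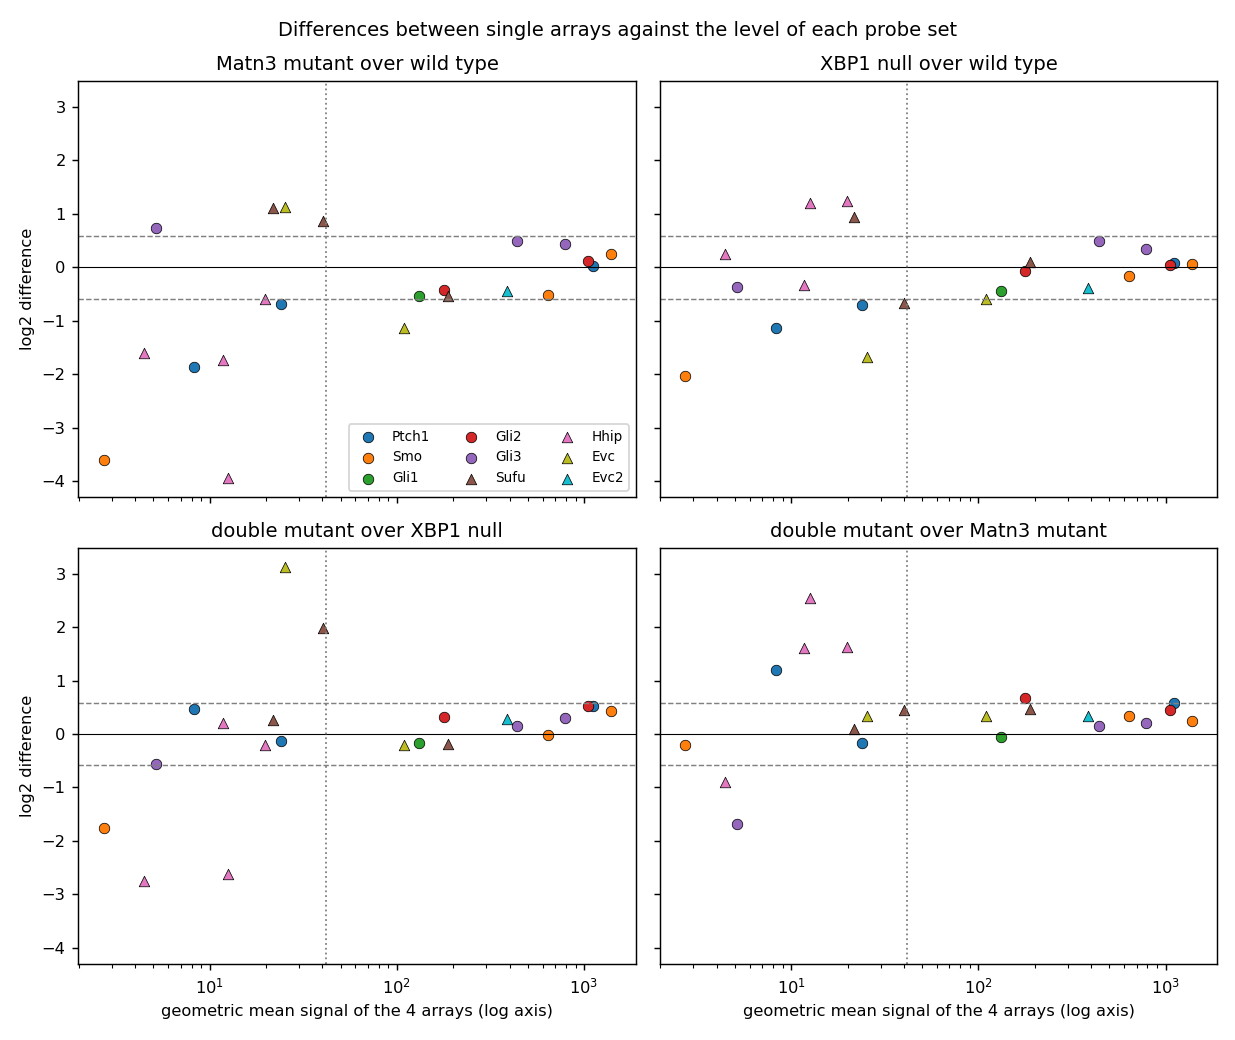
Log2 difference of each of the 22 probe sets (vertical axis) against its geometric mean signal over the 4 arrays (horizontal log axis), in the 4 comparisons of single arrays; dashed lines mark 1.5-fold and the dotted line the limit of the brighter ones at 41.6. To the right of the dotted line all points but those of *Evc* and *Gli2* named in the text lie within the dashed lines, and to the left they reach a log2 difference of -3.95.

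*Ptch1*, which encodes the Hedgehog receptor and is induced by the signal, had signals of 1497 in double mutant, 1005 in *Matn3* mutant, 1046 in XBP1 null and 986 in wild type chondrocytes on its brightest probe set, 1428853_at. The double mutant alone stood above the rest, at 1.49-fold the *Matn3* mutant and 1.43-fold the XBP1 null, while the single mutants were within 1.06-fold of wild type. A second probe set, 1439663_at, had 19.7, 22.0, 21.5 and 35.2 in the same order of genotypes and was highest in wild type. The third, 1450824_at, had 9.76, 4.28, 7.11 and 15.6, again highest in wild type. The dimmer pair thus gave the 4 genotypes in another order than the brightest probe set, at signals under the median of the arrays.

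*Hhip*, a direct target that encodes a membrane protein which binds the ligand and dampens the signal, was read by 4 dim probe sets, all of them lower in the *Matn3* mutant than in the wild type. On 1421426_at the signals were 30.1 in double mutant, 9.81 in *Matn3* mutant, 34.9 in XBP1 null and 14.8 in wild type chondrocytes. On 1455277_at they were 9.75, 1.68, 59.3 and 25.8, and on 1438083_at 15.6, 5.16, 13.6 and 17.2. The *Matn3* mutant was lowest on these 3. On 1437933_at the signals were 1.52, 2.84, 10.2 and 8.67, with the double mutant lowest. The *Matn3* mutant was 1.51-fold, 15.4-fold, 3.34-fold and 3.06-fold lower than wild type on the 4 probe sets in this order. The XBP1 null was 2.36-fold and 2.30-fold higher than wild type on the first pair and within 1.5-fold of it on the others. Loss of XBP1 in the mutant background, that is, in the double mutant relative to the *Matn3* mutant, went with 3.07-fold, 5.82-fold and 3.02-fold higher signals on 3 probe sets and a 1.86-fold lower one on 1437933_at. The *Matn3* mutant signals on 3 of the 4 probe sets were under 5.52, the 25th percentile of all values.

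*Smo*, which encodes Smoothened, the transducer that Patched-1 holds back, had signals of 1702 in double mutant, 1430.3 in *Matn3* mutant, 1261 in XBP1 null and 1204 in wild type chondrocytes on 1427049_s_at. On 1427048_at, which the annotation ties to the same cDNA accession, they were 654, 521, 658 and 742. The probe sets opposed each other between the *Matn3* mutant and the wild type, with the mutant 1.19-fold higher on the first and 1.42-fold lower on the second, both within 1.5-fold. On both, the double mutant was above the *Matn3* mutant, by 1.19-fold and 1.25-fold. The third, 1442215_at, had 0.901, 1.15, 3.38 and 13.9, and was 12.1-fold lower in the *Matn3* mutant than in the wild type, with 3 of its 4 signals under 5.52, the 25th percentile of all values. The study names *Smo* and *Evc* among the genes it found lower in the *Matn3* mutant on these arrays. Their direction in that comparison is therefore not independent evidence. The text of the study does not say which probe sets this rests on. Here the brightest probe set of *Smo* was higher in the mutant, and only 1442215_at was over 1.5-fold lower. *Evc* also had a probe set that was 2.19-fold higher.

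Among the GLI factors, the activator gene *Gli1*, itself induced by the signal and read by a single probe set, had signals of 114 in double mutant, 119 in *Matn3* mutant, 128 in XBP1 null and 173 in wild type chondrocytes. Its 3 mutant arrays lay close together under the wild type, which was 1.45-fold above the *Matn3* mutant and 1.35-fold above the XBP1 null. *Gli3*, the main repressor, had 962, 833, 784 and 619 in the same order on 1456067_at and 518, 467, 467 and 333 on 1455154_at. Both placed the wild type lowest and the double mutant highest, with the *Matn3* mutant 1.35-fold and 1.40-fold above the wild type and the XBP1 null 1.27-fold and 1.40-fold above it. *Gli1* and this pair of *Gli3* probe sets thus stood on opposite sides of the wild type in every mutant, each by less than 1.5-fold in the comparisons with the single mutants. The dim probe set of *Gli3*, 1450525_at, had 2.95, 9.45, 4.40 and 5.69 and gave another order.

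*Gli2*, which encodes the GLI factor that first turns on targets such as *Gli1*, had signals of 1373 in double mutant, 1006 in *Matn3* mutant, 959.8 in XBP1 null and 927 in wild type chondrocytes on 1459211_at. On 1446086_s_at, tied to the same accession, they were 221, 138, 178 and 186. Both probe sets were highest in the double mutant, by 1.36-fold and 1.60-fold over the *Matn3* mutant and by 1.43-fold and 1.24-fold over the XBP1 null. With quantile normalization, the log2 difference of the double mutant over the *Matn3* mutant on 1459211_at was 0.30 in place of 0.45. The 2 probe sets differed in the *Matn3* mutant compared to the wild type, at 1.09-fold higher and 1.35-fold lower. *Gli2* on 1446086_s_at was the one brighter probe set of the 9 genes over 1.5-fold different in the double mutant relative to the *Matn3* mutant, and *Ptch1*, at 1.49-fold, lay just inside the limit.

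*Sufu*, which encodes the cytoplasmic inhibitor that binds GLI proteins, had signals of 195 in double mutant, 142 in *Matn3* mutant, 220.4 in XBP1 null and 205 in wild type chondrocytes on its brightest probe set, 1450024_at, where the *Matn3* mutant was lowest, 1.45-fold under the wild type. On 1431713_at the signals were 76.6, 56.4, 19.3 and 30.8, and on 1420848_at 28.3, 26.6, 23.6 and 12.3. These were higher in the *Matn3* mutant than in the wild type, by 1.83-fold and 2.16-fold. The XBP1 null compared to wild type was 1.59-fold lower on 1431713_at and 1.92-fold higher on 1420848_at.

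*Evc* and *Evc2* are neighbours on chromosome 5 that point away from each other, with annotated starts 1531 bases apart, and their products form 1 complex at the base of the cilium. In humans, loss of either gives the chondrodysplasia of Ellis-van Creveld syndrome. The stretches of their promoters shown here, from RefSeq (build GRCm38.p6), are given because the genes start side by side and both, on their brightest probe sets, were highest in the wild type. Capitals mark the longest run, of 13 bases, that the 250 bases before each start have in common, read as its reverse complement in *Evc2*.
*Evc*, chr5:37336927-37337048, minus strand: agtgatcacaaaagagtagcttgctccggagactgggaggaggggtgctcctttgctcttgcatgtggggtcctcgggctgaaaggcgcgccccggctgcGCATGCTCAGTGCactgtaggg
*Evc2*, chr5:37338360-37338477, plus strand: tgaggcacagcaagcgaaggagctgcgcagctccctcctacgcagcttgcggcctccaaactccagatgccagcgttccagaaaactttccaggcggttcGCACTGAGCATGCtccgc
The last 21 bases shown for *Evc* lie inside the annotated gene, which reaches past the start used here. The run begins 67 bases before the start used for *Evc* and 18 before that of *Evc2*. On either strand, 10 of 32851 promoter windows, 0.0304%, hold it, these 2 among them. It was picked from these same windows, so the count is no test, and shared control of the genes was not tested. The shared run is a description of these letters.

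*Evc* on 1448876_at had signals of 97.9 in double mutant, 77.4 in *Matn3* mutant, 112 in XBP1 null and 169 in wild type chondrocytes. The wild type stood above all 3 mutants, and of the 11 brighter probe sets this was the one with the largest range, 2.18-fold. *Evc2*, read by 1429447_at alone, had 422, 333, 348 and 454, also with the wild type highest and the *Matn3* mutant lowest but over a range of only 1.36-fold. The other probe set of *Evc*, 1451697_a_at, had 59.6, 47.3, 6.80 and 21.6, with both arrays of the *Matn3* mutation above both without it. Relative to wild type, the *Matn3* mutant was thus 2.18-fold lower on one probe set of *Evc* and 2.19-fold higher on the other, and the double mutant compared to the XBP1 null was 1.15-fold lower and 8.77-fold higher. Both were lower in the XBP1 null than in the wild type, with log2 differences of -0.59 and -1.67, and both were 1.26-fold higher in the double mutant than in the *Matn3* mutant.

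Conflicts of this kind, with a probe set over 1.5-fold higher and another over 1.5-fold lower in the same comparison, were counted over the 7 of the 9 genes that have 2 or more probe sets. They occurred for *Evc* in the *Matn3* mutant relative to wild type, where 10.8% of the 9010 such genes of the array had one, and for *Sufu* in the XBP1 null compared to wild type, where 8.99% did. They occurred for *Hhip* in the double mutant relative to the *Matn3* mutant (6.33%) and for none in the double mutant compared to the XBP1 null (10.0%). *Smo*, whose brighter probe sets opposed each other by less than 1.5-fold, was not among them. That probe sets of *Smo* and *Evc* conflict was known when the 9 genes were chosen, so these counts are a description and no test.

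Represented by its brightest probe set, each of the 9 genes except *Gli1* was higher in the double mutant than in the *Matn3* mutant (8 of 9, where 63.5% of all genes were), with a median log2 difference of 0.34, beside 0.15 over all genes. *Hhip* alone was over 1.5-fold higher, and none was lower by that much, where 17.4% and 9.03% of genes were. In the *Matn3* mutant relative to wild type, 4 were above and 5 below, with a median of -0.45 beside 0.00 over all genes. Of these, *Evc* and *Hhip* were over 1.5-fold lower, where 19.3% of genes were, and none was higher, where 21.2% were. In the XBP1 null compared to wild type, *Hhip* was over 1.5-fold higher and *Evc* lower (23.3% and 11.5% of genes), with a median of 0.07 beside 0.09. In the double mutant compared to the XBP1 null, none passed in either direction (16.6% and 16.9% of genes), with a median of 0.28 beside 0.00. The median of -0.45 is that of *Evc2*, with genes on both sides of it, such as *Gli3* at 0.43 and *Sufu* at -0.53. With the median over the probe sets of a gene, *Ptch1* in the double mutant relative to the *Matn3* mutant was at -0.16, in place of 0.58.

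The only replication that the 4 arrays allow is an additive fit, in which the effect of the mutation is estimated over both XBP1 backgrounds and that of the loss of XBP1 over both *Matn3* backgrounds, with 1 residual degree of freedom. Over all 45037 probe sets, limma called none for either effect at an adjusted p under 0.05 (0.00% in each). At an unadjusted p under 0.05 there were 3381 for the mutation and 2052 for XBP1 loss. Of the 22 probe sets of the 9 genes, 2 had an unadjusted p under 0.05 for the mutation and none for the loss of XBP1. Both read *Hhip*, with a log2 effect of -3.28 ± 0.63 (SE, adjusted p = 0.635 in limma) on 1455277_at and of -2.18 ± 0.45 (SE, adjusted p = 0.635 in limma) on 1437933_at. The other probe sets of *Hhip* had effects of the mutation of -0.40 ± 0.44 and -0.77 ± 0.79. For *Gli3*, the effects of the mutation were 0.36 ± 0.10 and 0.32 ± 0.15, and those of the loss of XBP1 0.27 ± 0.10 and 0.32 ± 0.15, on its brighter pair. For *Gli1* they were -0.35 ± 0.20 and -0.25 ± 0.20, and for *Ptch1* on its brightest probe set 0.27 ± 0.19 and 0.33 ± 0.19. None of these passed the threshold. Each SE was moderated by eBayes over all probe sets, so it does not rest on the 1 residual degree of freedom alone.

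**Figure D3:**
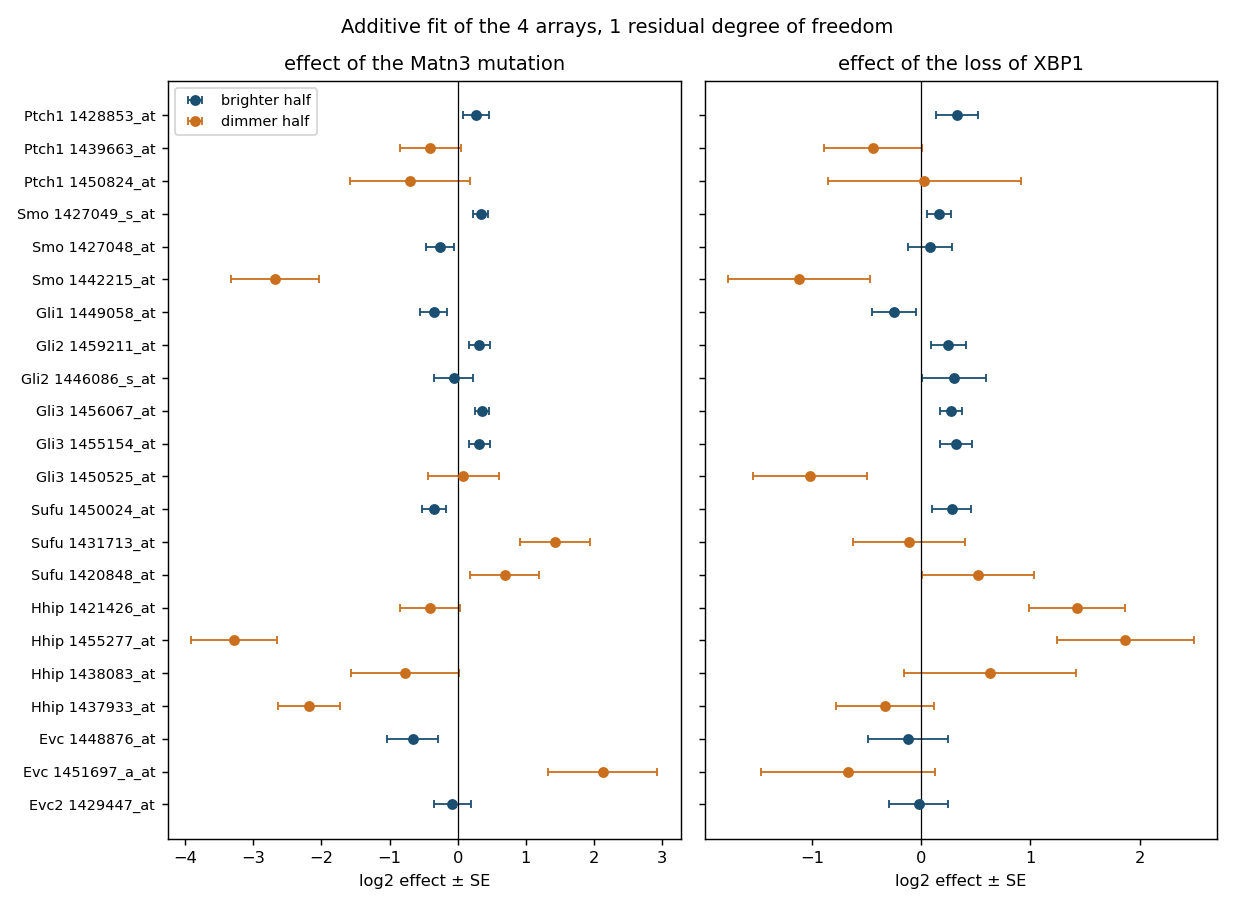
Log2 effect of the *Matn3* mutation (left) and of the loss of XBP1 (right) on each of the 22 probe sets in the additive fit of the 4 arrays, which has 1 residual degree of freedom. Points are effects and bars standard errors moderated by eBayes over all probe sets, in blue for the brighter and orange for the dimmer probe sets. The effects of the brighter probe sets lie between -0.66 and 0.36 for the mutation, and the dimmer ones reach from -3.28 (*Hhip*) to 2.13 (*Evc*).

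How far the effect of the mutation differed between XBP1 backgrounds can be read as the log2 difference between double mutant and XBP1 null less that between *Matn3* mutant and wild type. Over the 11 brighter probe sets its size was 0.13 to 0.93 with a median of 0.40, beside a median of 0.43 over all brighter probe sets. It was largest for *Evc* (0.93), *Gli2* on 1446086_s_at (0.74) and *Evc2* (0.73), each time with the double mutant higher than additive effects would give. For *Ptch1* it was 0.49, and both *Gli3* probe sets gave values under 0, -0.13 and -0.34. These departures carry no test, since with 4 arrays they are the same quantity as the error of the fit.

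The other genes of the pathway were read on their brightest probe sets, from lists that hold 112 measured genes in all. In the *Matn3* mutant, 11 of these exceeded wild type by over 1.5-fold and 23 lay as far below it, where 21.2% and 19.3% of all genes did. With the median over the probe sets of a gene, 7 were above and 30 below, and with quantile normalization 11 were above and 19 below. Of 8 ligand and ligand release genes, 2 were higher and 2 lower, each near the share of all genes. *Ihh*, the ligand of growth cartilage, had signals of 30.03 in double mutant, 32.8 in *Matn3* mutant, 7.23 in XBP1 null and 17.1 in wild type chondrocytes. Both arrays with the mutation were above both without it, all at dim signals. *Dhh*, which encodes desert hedgehog, had 89.2, 66.0, 56.6 and 37.9, with the wild type lowest. *Pthlh* was not analysed here. Of 9 coreceptors and membrane regulators, 1 was higher and none lower, and *Gas1*, which encodes a coreceptor that helps the ligand bind, had 2698, 1634, 2468 and 2355, lowest in the *Matn3* mutant.

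In the *Matn3* mutant, 5 of 26 genes of GLI processing and related zinc finger genes exceeded wild type by over 1.5-fold and 2 were lower by as much, where 21.2% and 19.3% of all genes were. *Glis1* and *Glis3*, which encode GLI-like zinc finger factors, had the largest differences in that comparison. In the *Matn3* mutant they were 3.79-fold and 3.33-fold above wild type, and in the XBP1 null 3.05-fold and 3.21-fold above it. Their signals were 312 and 517 in double mutant, 352 and 903 in *Matn3* mutant, 283 and 870.3 in XBP1 null and 93.0 and 271 in wild type chondrocytes. Of 20 reported target genes other than the 9, 2 were over 1.5-fold above and 3 below wild type in the *Matn3* mutant, beside the same shares of all genes. *Snai1*, which encodes a repressor of epithelial genes, had 243, 104, 131 and 261 in the same order and was 2.52-fold and 1.99-fold lower than wild type in the *Matn3* mutant and the XBP1 null. *Jag1*, which encodes a Notch ligand, had 727, 749, 956 and 321, and was 2.33-fold and 2.98-fold higher. Of the same 20 genes, 5 were higher and none lower in the double mutant relative to the *Matn3* mutant, among them the forkhead genes *Foxf1* (1.87-fold) and *Foxc2* (1.78-fold), where 17.4% of all genes were higher and 9.03% lower.

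Hedgehog signalling in vertebrates runs through the primary cilium, and in the *Matn3* mutant more of the listed cilium genes lay over 1.5-fold below wild type than above it. Of 25 genes of intraflagellar transport and its motors, which carry cargo along the cilium, 8 were over 1.5-fold lower and none was higher in the *Matn3* mutant relative to wild type, with a median log2 difference of -0.42, where 19.3% and 21.2% of all genes were lower and higher and the median was 0.00. *Ift27*, whose product takes part in the exit of pathway components from the cilium, had signals of 569 in double mutant, 292 in *Matn3* mutant, 725 in XBP1 null and 765 in wild type chondrocytes, and was 2.62-fold lower in the *Matn3* mutant. *Ift74*, of the same particle, was 1.87-fold lower, and *Kif3a*, which encodes a subunit of the kinesin motor, 1.71-fold lower. Of 22 genes of the ciliary membrane and transition zone, 8 were lower and 1 was higher, with a median of -0.42. All 25 genes of the first list and 21 of these 22 were read by brighter probe sets. Over all brighter probe sets, 17.7% were lower and 14.1% higher, with a median of -0.06. With quantile normalization the medians of the lists were -0.36 and -0.32. The lower genes of the second list included *Tmem216* (2.45-fold lower) and *B9d2* (2.25-fold lower), of the transition zone, and *Bbs2* (2.23-fold lower), of the BBSome.

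The *Matn3* mutant array was the lowest of the 4 for 21 of the 25 and 16 of the 22 genes, as it was for 42.7% of all brighter genes. In the XBP1 null compared to wild type the medians were -0.17 and -0.33, with 1 and 2 genes over 1.5-fold lower and 0 and 1 higher. Between the double mutant and the XBP1 null the medians were 0.09 and 0.13. In the double mutant relative to the *Matn3* mutant they were 0.36 and 0.29, beside 0.15 over all genes, with 4 and 2 genes higher and 0 and 1 lower. *Iqce* and *Efcab7*, whose products hold the EVC complex at the base of the cilium, were lowest in the *Matn3* mutant and highest in the wild type, as *Evc* on its brightest probe set and *Evc2* were. The wild type was also the highest for 13 of the 25 and 14 of the 22 cilium genes, and for 25.1% of all brighter genes. *Iqce* had 97.0, 91.0, 106 and 119 in double mutant, *Matn3* mutant, XBP1 null and wild type chondrocytes, and *Efcab7* 129.8, 119, 138 and 172, all within 1.5-fold.

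**Figure D4:**
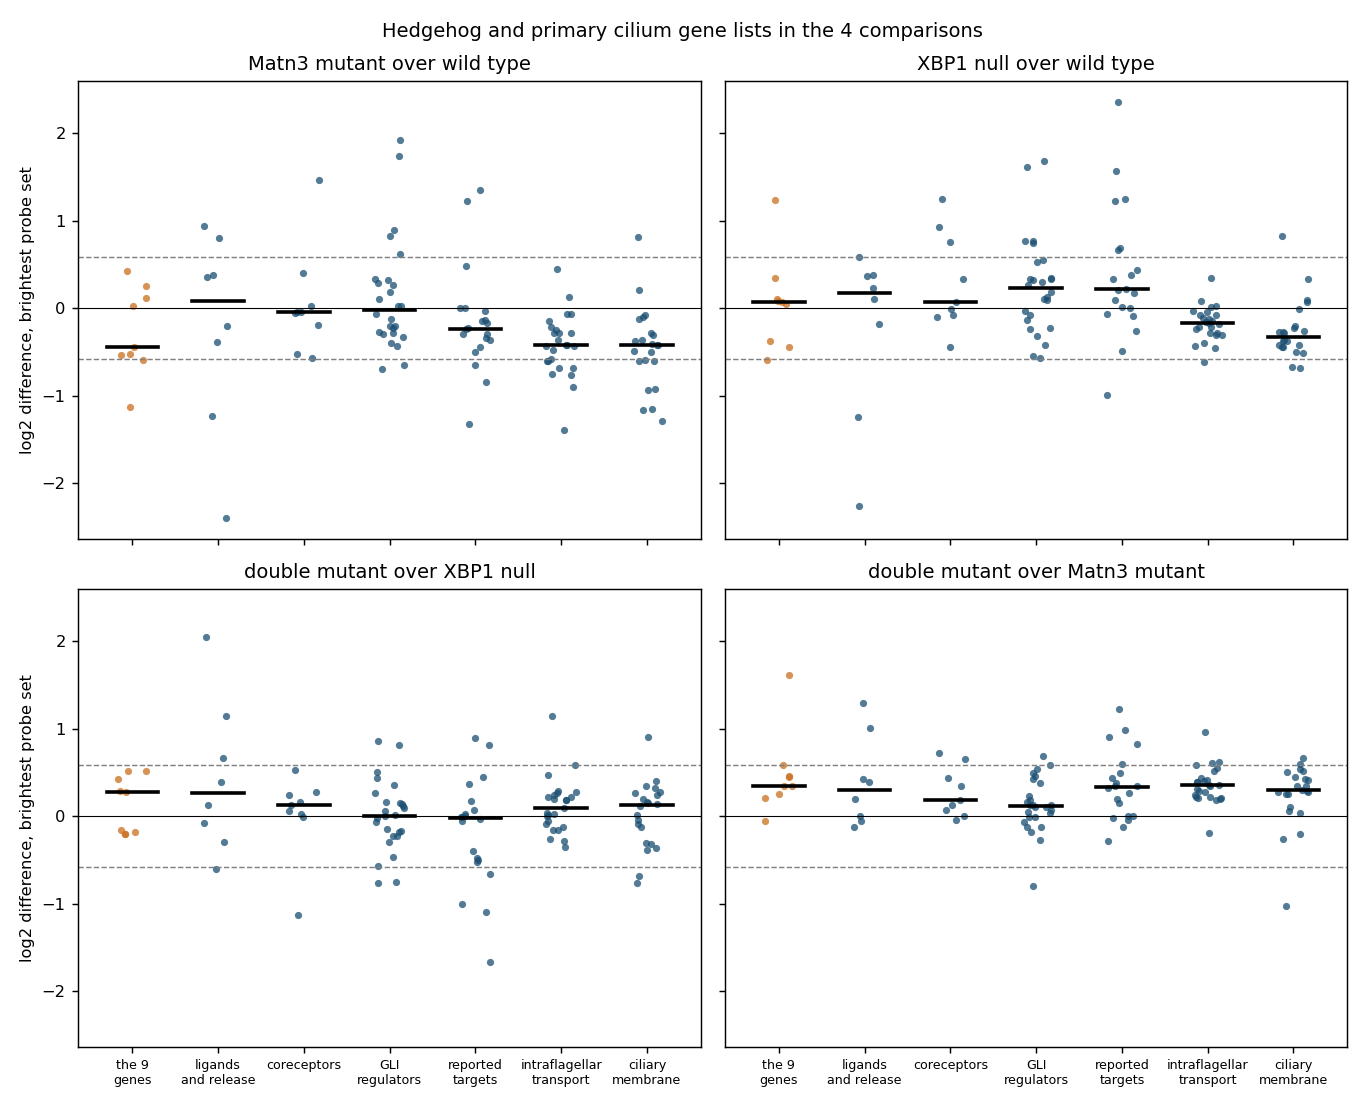
Log2 difference of each gene on its brightest probe set, for the 9 genes (orange) and 6 lists of other Hedgehog and cilium genes (blue), in the 4 comparisons of single arrays; each thick bar is a median, and 1.5-fold is dashed. The medians of both cilium lists lie at -0.42 in the *Matn3* mutant relative to wild type and at 0.36 and 0.29 in the double mutant relative to the *Matn3* mutant.

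Rib preparations also hold perichondrium, bone, muscle, vessels and blood, and in RNA of mixed cells a smaller number of cells and less RNA per cell cannot be told apart. The summed signal of 17 perichondrium and fibroblast markers was 86405 in double mutant, 66304 in *Matn3* mutant, 101038 in XBP1 null and 73784 in wild type chondrocytes, the order that *Hhip* gave on 1421426_at and on none of its other 3 probe sets. Of these markers, the *Matn3* mutant had 5 over 1.5-fold below wild type and 1 above it, where 19.3% and 21.2% of all genes were. The XBP1 null had 11 above and none below, where 23.3% and 11.5% of all genes were. The sums of 8 osteoblast markers were 6261, 3355, 8689 and 5841, and those of 11 endothelial markers 1805, 1237, 5659 and 951, in the same order of genotypes. Sums of 8 hypertrophic chondrocyte markers were 2624, 2332, 3932 and 3905, of 13 muscle markers 2937, 2104, 2810 and 3352, and of 5 adipocyte markers 1826, 1337, 5750 and 956. Of the hypertrophic markers, the *Matn3* mutant had 5 over 1.5-fold below wild type and 1 above (19.3% and 21.2% of all genes). Their median log2 difference was -1.05. The same counts held for the 8 osteoblast markers, with a median of -0.82, and *Alpl* and *Ibsp* are in both lists. The hypertrophic sums of XBP1 null and wild type were close, with *Col10a1* higher (1370 and 831) and *Panx3* lower (857 and 1628) in the XBP1 null. Most of the muscle sum was *Tnnt3*, at 2406, 1829, 1906 and 2780. By gene, 9 of the 13 muscle markers were over 1.5-fold higher in the XBP1 null than in the wild type and 1 was lower. Only 4 of the 13 were read by brighter probe sets. Of these, *Acta1* and *Myod1* were 1.78-fold and 1.91-fold higher, and *Tnnt3* and *Tnni2* 1.46-fold and 1.04-fold lower. All 11 endothelial markers were over 1.5-fold higher in the XBP1 null than in the wild type. The median log2 differences between these arrays were 0.93 for muscle and 4.69 for endothelium. In the *Matn3* mutant relative to wild type, 6 of the 11 endothelial markers were over 1.5-fold higher and 1 was lower. Their median log2 difference was 1.11. Most of the endothelial sum in the wild type was *Erg*, at 668, and *Erg* had 614 in the *Matn3* mutant. Sums of 5 erythroid markers were 39.5, 30.8, 215 and 132, and of 10 leukocyte markers 785, 699.6, 797 and 608. The part of these cells in the values of *Hhip*, *Ptch1*, *Gli1* and the cilium genes was not tested.

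For the 3 direct targets, the genes with the nearest pattern were sought among the 10982 brighter genes, by the root mean square distance between log2 signals centred on the mean of the 4 arrays. The nearest to *Ptch1* were *Mul1*, *Tvp23a* and *Polr3d*, at distances of 0.012, 0.012 and 0.022, and 175 genes lay within 0.1. The nearest to *Gli1* were *Zwilch*, *Palb2* and *Atad2*, at 0.020, 0.024 and 0.027, with 138 genes within 0.1. *Zwilch* had signals of 325, 351, 367 and 493 in double mutant, *Matn3* mutant, XBP1 null and wild type chondrocytes. The nearest to *Hhip*, read on its dim probe set 1421426_at, were *Hes1*, *Thbs4* and *Sema3g*, at 0.119, 0.128 and 0.148, with no gene within 0.1. Its other probe sets gave the genotypes in other orders and were not searched. *Hes1*, which encodes a repressor induced by Notch, had 819, 289, 852 and 355, low in the wild type and the *Matn3* mutant and high in both genotypes without XBP1. With 4 arrays many genes have a like pattern, and the distances for *Ptch1* and *Gli1* single out none.

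Promoter windows, from 250 bases before to 50 after a start, were at hand for 8 of the 9 genes. The GLI binding sequence, searched as GACCACCCA on both strands, was in none of the 8, and in 0.253% of 32851 windows. Its inner letters ACCACCC, contained in it, were in 1, that of *Gli2*, 205 bases before the start, and in 4.61% of all windows. The XBP1 and ATF6 element TGACGTGG was in none of the 8 and in 0.676% of windows, and the ER stress response element, CCAAT and CCACG with any 9 bases between them, in none and in 0.119%. This says only that these letters are not in windows of this length.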

How the data were processed

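RNA of rib chondrocytes was measured on 4 whole-genome 3' expression arrays, 1 for each genotype. The values deposited by the authors are linear intensities of 45037 probe sets, and the sources used here do not state how they were summarized or normalized. Microarray Suite 5 served for quality checks of control hybridizations and PPLR for differential expression, which was not applied here since it needs probe-level errors. Of the probe sets, 34945 name 1 gene, 932 several and 9160 none; no probe set that names several names one of the 9 genes. Intensities under 1 were set to 1 and log2 taken, without further scaling. Each gene is read on its brightest probe set by mean log2, and the other probe sets of the 9 genes are given too. Differences between single arrays carry no test, and the number of arrays limits the precision. The additive model was fitted in limma 3.58.1 (R 4.3.3) over all probe sets, with eBayes, a trend on intensity and Benjamini-Hochberg adjustment, and was tested on simulated data. Tables and figures were made with Python 3.11.15, pandas 2.3.3, numpy 2.4.6 and matplotlib 3.10.9. Promoter windows and gene positions came from RefSeq tables of GRCm38.p6.

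The 9 genes, the 7 pathway lists, the 9 marker lists and the tests were chosen with earlier results of these data known. Named genes were the 9 on all probe sets, up to 4 genes of a pathway list with the largest difference in a comparison, *Ihh* and *Pthlh*, and the 3 nearest genes to each of 3 targets. The alternatives were quantile normalization, centring on array medians, a floor at the 25th percentile, only brighter probe sets, a fold of 2, the median over probe sets of a gene and eBayes without trend.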

Additional observations from a re-analysis of the deposited data

Results flagged for a closer look

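On probe set 1450824_at of *Ptch1*, loss of XBP1 went with opposite differences on the 2 *Matn3* backgrounds. The signal was 2.28-fold higher in the double mutant than in the *Matn3* mutant (9.76 and 4.28) and 2.19-fold lower in the XBP1 null than in the wild type (7.11 and 15.6), and the log2 differences are 2.32 apart. The difference between backgrounds was not tested, each side rests on 1 array, and all 4 signals are under the median of the arrays. On the brightest probe set of *Ptch1* the signals without XBP1 were the higher ones on both backgrounds, by 1.49-fold and 1.06-fold.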

How the results depend on the processing

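Among recomputed counts and medians of the 9 genes, 58 values stayed within 1.5 times (counts) or within the residual SD of the additive fit (medians) and 12 moved. Among log2 differences and additive effects of single genes and medians of gene lists, 384 stayed, 39 moved and 1 reversed. An additive effect was counted as staying if it kept its sign and did not pass the threshold. Centring shifted signals by at most 0.001, so values under it could hardly move. With only the 11 brighter probe sets, the number over 1.5-fold different was 1 in place of 12 (*Matn3* mutant over wild type), 1 in place of 9 (XBP1 null over wild type), 0 in place of 5 (double mutant over XBP1 null) and 1 in place of 7 (double mutant over *Matn3* mutant). A fold of 2 gave 5 in place of 9 in the XBP1 null over wild type. Genes with conflicting probe sets, 1 each in 3 comparisons, became 0 in all 3 with the brighter probe sets only, which was certain since *Evc*, *Sufu* and *Hhip* then keep at most 1 each, 0 in the XBP1 null over wild type and the double mutant over *Matn3* mutant with a fold of 2, and 0 in the double mutant over *Matn3* mutant with the floor at the 25th percentile. Taking the median over the probe sets of a gene changed the median of the 9 genes in the XBP1 null over wild type to -0.38, in place of 0.07. In the *Matn3* mutant over wild type it brought *Evc* to 0.00, in place of -1.13. There it also changed the sign for *Ptch1* (0.03 to -0.68), *Smo* (0.25 to -0.51), *Gli2* (0.12 to -0.15) and *Sufu* (-0.53 to 0.87). *Hhip* went from -0.59 to -2.06, and *Gli1*, *Gli3* and *Evc2* kept their signs. Only a difference first over 1.5-fold could be counted as reversed, so *Evc* alone was. No probe set of the 9 genes passed in the additive fit in limma under any alternative, although 13 other probe sets passed for the mutation when only the brighter probe sets were fitted. Over the probe sets of an array, the median shift of log2 signals was at most 0.001 in size with centring and 0.068 with quantile normalization. Quantile normalization lowered the log2 difference of the double mutant over the *Matn3* mutant for each of the 9 genes but *Hhip*. It went from 0.58 to 0.45 for *Ptch1*, from 0.25 to 0.12 for *Smo* and from 0.45 to 0.30 for *Gli2*. For *Hhip* it rose from 1.62 to 1.71. No paired analysis was possible because each genotype has 1 array and the labels give no replicate numbers.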
